A study of Mus musculus with 32 samples.

Results

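The genes of the cytosolic ribosomal proteins were followed in the livers and spleens of clones made by nuclear transfer, each set against conventionally bred mice of the same genotype. Members were chosen by symbol: Rpl or Rps with a number, the stalk genes Rplp0, Rplp1 and Rplp2, and Rpsa. Rps6k kinases and the ribosomal proteins of mitochondria were left out. This gave 62 genes on 93 probes, of 17060 features on 20794 probe rows. Large-subunit proteins account for 34 of the genes (51 probes) and small-subunit proteins for 22 (36 probes). The other 6 genes were kept apart: the paralogs Rpl22l1, Rpl36al, Rpl39l, Rpl7l1 and Rps27l, and Rps19bp1, which encodes a binding partner of a ribosomal protein and not a subunit. Rpl10 was not on the array.

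There were 4 groups of 4 mice: livers of Dll1 clones, livers of wt (wild type) clones, spleens of Dll1 clones and spleens of wt clones. Dll1 encodes a ligand of Notch receptors. Each Dll1 clone was hybridised against a pool of Dll1 heterozygotes and each wt clone against a pool of wild type mice, so that no array sets the mutation against its absence. All were 129/SvJ males of 18 to 19 weeks, and by their identifiers the same 4 clones of a genotype gave both organs. The labels list 4 mice for a pool and the labelling protocol 6. The sources used here do not give which Dll1 allele the clones carried or how many donor cell lines they came from. The pool was 1 RNA sample, so a ratio against it leaves out the spread between its animals.

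The eukaryotic ribosome joins a small subunit, which decodes the messenger RNA, to a large subunit, which forms the peptide bond, and each standard ribosomal protein is a single building block of one of them. Many mRNAs of ribosomal proteins begin at a run of pyrimidines, the TOP motif, through which mTOR controls their translation, and the mRNAs are abundant in every growing cell. Liver makes most plasma proteins and spleen holds lymphocytes, macrophages and, in mice, red cell precursors, so that both organs depend on ribosome supply. The mouse genome holds many processed copies of ribosomal protein genes, and cross-hybridisation of probes with them was not tested.

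The start regions of 6 of the genes are shown first, because these genes lay on like sides of 0 in the organs described below. Each run holds the 40 bases before and the first 20 bases from the annotated start on, 5′ to 3′ on the gene's strand, taken from RefSeq with the GRCm38.p6 build. Capitals mark the pentamer CTTTC, or GAAAG where it lies on the opposite strand.
Rpl4, chr9:64173347-64173406, plus strand: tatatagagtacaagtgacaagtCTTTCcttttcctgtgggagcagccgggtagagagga
Rpl5, chr5:107900488-107900547, plus strand: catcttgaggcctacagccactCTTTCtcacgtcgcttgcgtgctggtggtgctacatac
Rpl23, chr11:97782420-97782479, minus strand: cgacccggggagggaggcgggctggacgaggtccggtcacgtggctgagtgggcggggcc
Rpl39, chrX:37085203-37085262, minus strand: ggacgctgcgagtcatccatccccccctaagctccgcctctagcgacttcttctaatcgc
Rps27, chr3:90213629-90213688, minus strand: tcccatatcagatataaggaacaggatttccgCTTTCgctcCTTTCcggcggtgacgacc
Rps28, chr17:33824543-33824602, minus strand: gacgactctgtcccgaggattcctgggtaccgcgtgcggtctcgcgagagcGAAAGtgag
Of the 6 windows, 3 hold CTTTC on the gene's strand (Rps27 at 2 places), the Rps28 window holds it on the opposite strand, and those of Rpl23 and Rpl39 do not hold these letters. Windows were found for 54 of the 62 genes, and CTTTC on either strand was in 22 of the 54 (40.7%), against 17.0% of the 27025 genes in the table. On the gene's strand alone the shares were 33.3% (18 of 54) and 9.42%. The letters CGGAAG, found in binding sites of ETS factors, were on either strand of 19 of the 54 (35.2%), against 7.66% of all genes, and in none of the 6 windows above. They overlapped CTTTC in no member and in 0.0407% of all genes. These matches describe the letters in a window and are no evidence of binding or translation. Rps29, Rps14, Rpl32, Rps20, Rpl8, Rpl30, Rpl7 and Rplp1 have no window in this table.

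The values below are deposited log2 ratios, read as clone over pool, so that a value below 0 is taken as a lower signal in the clone. This direction was the reading favoured in earlier work on these data, and the sample titles name the clone ahead of the pool. The titles do so for both dye orientations and do not state the direction of the ratio. Each mouse had 2 arrays per organ with the dyes swapped, and its value is the mean of both arrays as deposited. Whether the deposited values of the arrays with the clone in Cy3 had already been turned to the same direction as those with it in Cy5 is not settled. The mean ratios of both orientations correlated across all probes at r = -0.26 in Dll1 liver, -0.70 in wt liver, -0.30 in Dll1 spleen and -0.38 in wt spleen. Within an orientation, arrays of a group correlated at 0.06 to 0.74. The 1183 values over 9 in size, treated as missing, were positive on Cy5 arrays (748) and negative on Cy3 arrays (435). What this split means for the direction was not tested. Counts and medians over the genes are therefore also given with the Cy3 arrays turned. Spleen arrays stood apart in their missing values, 270 to 2966 of 20794 per array against 74 to 288 in liver, although at most 3 of the 93 member probes were missing on any array. Ratios carry no level, so the organ labels could not be checked against levels of marker genes.

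As deposited, the ribosomal protein genes lay slightly below the pool in liver and slightly above it in spleen, in clones of both genotypes. The median over the 62 genes was -0.06 in Dll1 liver and -0.06 in wt liver, against 0.13 in Dll1 spleen and 0.09 in wt spleen. Without wt mouse 1 or wt mouse 3 the wt spleen median was 0.045 and 0.044. The median of all features stood at -0.003, 0.007, 0.006 and 0.011 in the same groups. No member passed limma's test with Benjamini-Hochberg adjustment over all features (adjusted p under 0.05) in any of the 11 comparisons, so what follows describes many small values of like sign.

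The medians of single mice show how even the shift was. In livers of Dll1 clones the median over the 62 genes was -0.09, -0.04, -0.09 and -0.04 in mice 1 to 4. In livers of wt clones it was -0.05, -0.06, -0.11 and -0.04. All 8 livers thus lay below 0. Spleens of the same Dll1 clones had medians of 0.15, 0.07, 0.04 and 0.23. Spleens of the wt clones had medians of 0.13, -0.02, 0.14 and 0.04, so that 7 of 8 spleens lay above 0 and wt mouse 2 did not. No liver overlapped with a spleen in Dll1 clones, and in wt clones the spleen of mouse 2 lay above the highest liver (-0.04). The medians of all features lay between -0.034 and 0.025 in every mouse and organ. In bulk RNA, fewer cells of a type and less of an mRNA per cell cannot be told apart.

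**Figure D1:**
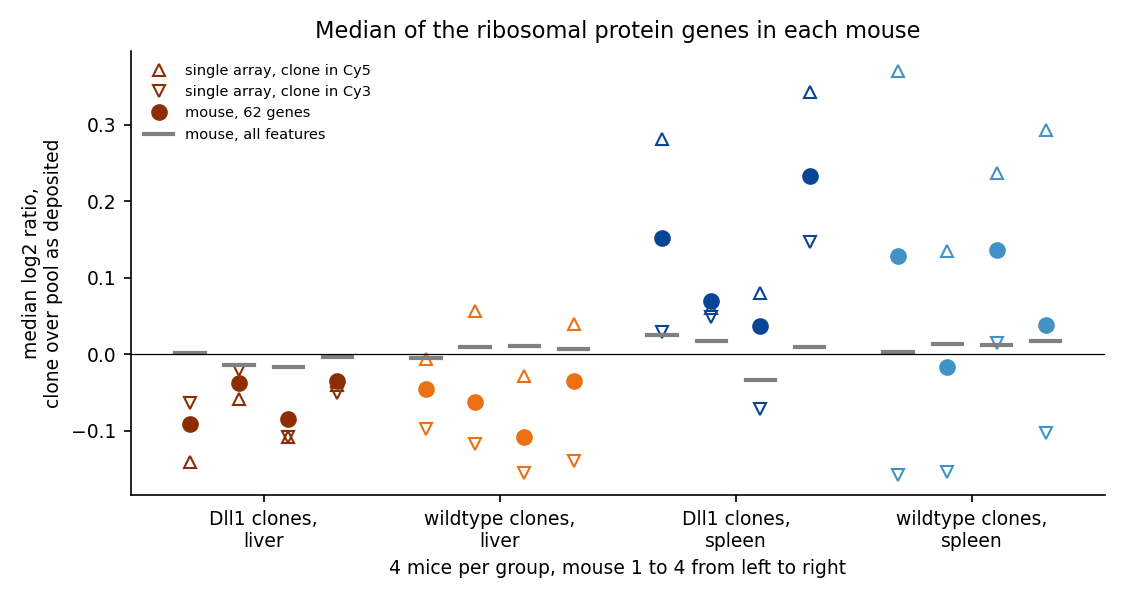
Median log2 ratio of the ribosomal protein genes (vertical axis, clone over pool as deposited) in each of the 4 mice of a group. Filled circles are the mean of a mouse's 2 arrays over 62 genes, open triangles its single arrays by dye of the clone, and grey bars the median of all features. All 8 liver circles lie below 0 and 7 of 8 spleen circles above it, and in wt clones the Cy5 and Cy3 triangles are widely apart.

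The shift was not the same in both dye orientations. In Dll1 liver the member probes had medians of -0.14 to -0.04 on the 4 Cy5 arrays and -0.11 to -0.02 on the 4 Cy3 arrays, so that all 8 arrays lay below 0. In wt liver they lay at -0.03 to 0.06 on the Cy5 arrays and -0.155 to -0.098 on the Cy3 arrays, so that the shift in wt liver lay in the Cy3 arrays. In Dll1 spleen the medians were 0.06 to 0.34 on Cy5 arrays and -0.07 to 0.15 on Cy3 arrays, and in wt spleen 0.135 to 0.37 and -0.158 to 0.014. Across member probes the mean ratios of both orientations correlated at -0.08 in Dll1 liver, -0.81 in wt liver, -0.20 in Dll1 spleen and -0.41 in wt spleen. The medians of all features also differed by dye in liver, at -0.008 to 0.031 on Cy5 and -0.06 to -0.021 on Cy3 arrays in Dll1 clones, and at 0.032 to 0.042 and -0.067 to -0.013 in wt clones. On the Cy3 array of Dll1 liver mouse 2 the member median and the median of all features were both -0.021.

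With the Cy3 arrays turned, the genes lay on both sides of 0 in liver and mostly above it in spleen. The median of the 62 genes became -0.0085 in Dll1 liver and 0.03 in wt liver, against 0.07 in Dll1 spleen and 0.18 in wt spleen. The medians of all features were then 0.023, 0.041, -0.008 and 0.061. Single wt spleens had medians of 0.26, 0.14, 0.10 and 0.20 on this reading and single Dll1 spleens 0.11, 0.01, 0.08 and 0.10, all 8 above 0. Single livers lay at -0.03, -0.04, 0.004 and -0.02 in Dll1 clones and at 0.02, 0.07, 0.03 and 0.07 in wt clones. All 4 Dll1 livers then still lay below their own medians of all features (0.017, 0.007, 0.034 and 0.026), and the wt livers lay on both sides of theirs (0.021, 0.041, 0.039 and 0.048). The liver minus spleen median was below 0 on both readings, -0.18 as deposited and -0.08 turned in Dll1 clones, and -0.14 and -0.11 in wt clones. With the sign of the wt liver Cy3 arrays alone turned, it was -0.01 in wt clones.

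Among all features of the turned reading, 4.54% passed in Dll1 liver, 53.9% in wt liver, 4.36% in Dll1 spleen and 0.95% in wt spleen. Of the 62 genes, 4 then passed in Dll1 liver, all lower (Rpl22, Rpl24, Rps15a and Rps6), and 30 in wt liver, 20 higher and 10 lower. None passed in Dll1 or wt spleen on that reading, with lowest adjusted p of 0.0687 and 0.142 by limma. In the spleen mean 11.7% of all features passed, among them Rpl22l1, Rpl26, Rpl36al and Rps18 on the higher side and Rpl30 and Rps15a on the lower side. In the liver mean 41.6% passed, with 16 members higher and 11 lower. For the mean liver minus spleen difference 12.4% of all features passed, among them 8 members: Rpl22l1, Rpl28, Rpl39, Rpl9, Rps20, Rps28 and Rps3a1 lower in liver, and Rpl30 higher. In wt clones alone 12.2% of all features passed between organs, with 7 members lower in liver and 1 higher, and in Dll1 clones 3.46% passed and no member.

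In liver, the genes on the low side outnumbered those on the high side. In Dll1 liver 49 of 62 genes lay below 0, against 51.7% of all features, and in wt liver 54 of 62, against 45.2%. Values of all 4 mice were below 0 for 17 genes in Dll1 liver (9.83% of all features) and for 18 genes in wt liver (9.01%). At an unadjusted p under 0.05, 12 genes were lower and 1 higher in Dll1 liver, where 5.54% of all features were lower. In wt liver 11 were lower and none higher, against 4.21%, and for the mean of both genotypes 20 were lower, against 7.35%, with 55 of 62 below 0, against 47.3%. After adjustment no feature at all passed in Dll1 liver (0%), 0.0705% did in wt liver and 0.112% for the mean.

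Spleen was the mirror image in sign. In Dll1 spleen 51 of 62 genes lay above 0 and 10 below, against 50.7% of all features above, and in wt spleen 48 lay above and 14 below, against 52.7%. All 4 mice were above 0 for 19 genes in Dll1 spleen, against 8.3% of all features, and for 9 genes in wt spleen, against 8.9%. At an unadjusted p under 0.05, 2 genes were higher and 1 lower in Dll1 spleen, where 4.88% of all features were higher. In wt spleen 1 was higher and 1 lower, against 1.8%. For the mean of both genotypes 5 were higher and 1 lower, against 3.84%, and 51 of 62 lay above 0, against 51.4%. No feature passed the adjusted threshold in Dll1 spleen, wt spleen or their mean (0% each).

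Spread differed between the organs. The median SD between mice over the 62 genes was 0.10 in Dll1 liver, 0.093 in wt liver, 0.162 in Dll1 spleen and 0.132 in wt spleen. Over all features it was 0.110, 0.087, 0.454 and 0.278. Ribosomal protein genes were about as variable as the median feature in liver and less variable than it in spleen. When all 4 groups shared 1 estimate of the spread, 5.62% of all features passed in Dll1 spleen, among them Rpl32 (adjusted p = 0.00654) and Rpl4 (0.0441) on the higher side and Rpl11 (0.0461) on the lower side by limma. For the spleen mean 3.53% passed, with Rpl32 (0.0101), Rps27 (0.0302), Rpl5 (0.0369) and Rps14 (0.0376) on the higher side. In that fit the spleens borrow the lower spread of the livers.

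The liver minus spleen difference puts both organs of the same clones side by side. It was below 0 for 53 of 62 genes in Dll1 clones, against 51.4% of all features, for 53 of 62 in wt clones, against 51.8%, and for 56 of 62 in the mean, against 51%. Liver lay below spleen in all 4 mice for 25 genes in Dll1 clones, against 8.79% of all features, and for 21 genes in wt clones, against 9.77%. A liver mean below 0 together with a spleen mean above 0 was found for 42 of 62 genes in Dll1 clones, against 27.2% of all features, and for 43 in wt clones, against 24.7%. At an unadjusted p under 0.05, 17 genes were lower in liver than in spleen and 1 higher in Dll1 clones (6.99% of all features lower), 8 lower in wt clones (2.91%) and 24 lower in the mean (6.29%). No member passed after adjustment, where 0.0413%, 0% and 0.219% of all features did.

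**Figure D2:**
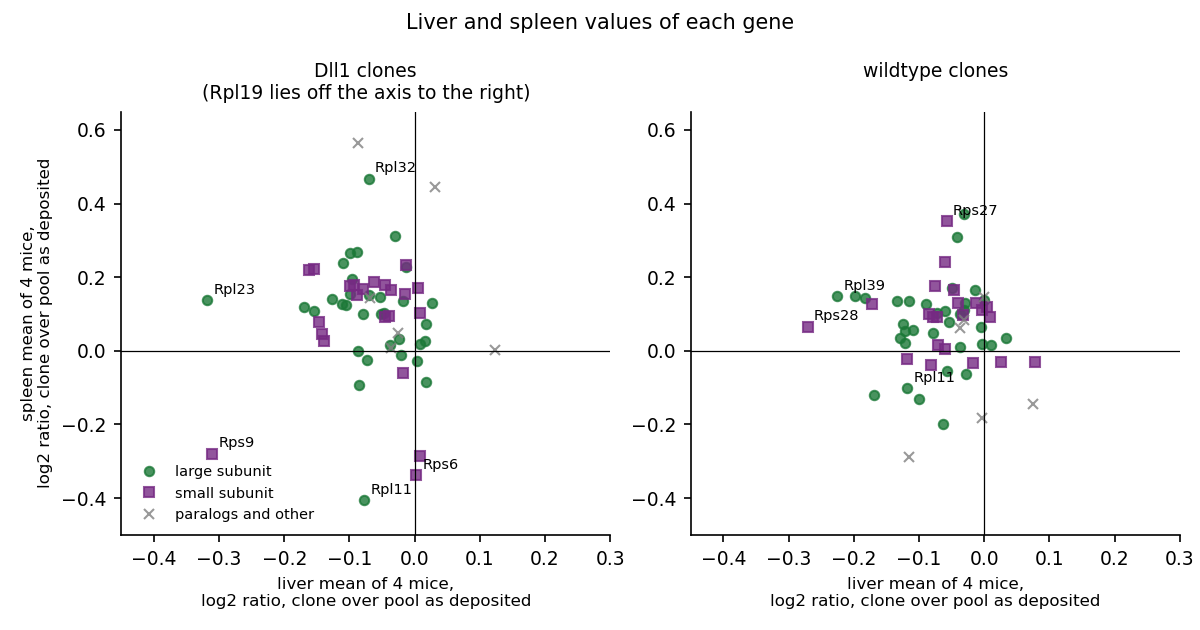
Spleen mean (vertical axis) against liver mean (horizontal axis) of each gene, as log2 ratios of clone over pool, in Dll1 clones (left panel) and wt clones (right panel), with marks by subunit. Most genes, 42 of 62 in Dll1 clones and 43 of 62 in wt clones, lie in the upper left part, lower in liver and higher in spleen. Rpl19 of Dll1 clones, at a liver mean of 1.08, is outside the axis.

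Both subunits lay on the same sides. In Dll1 liver the median was -0.07 over the 34 large-subunit genes (27 below 0) and -0.05 over the 22 small-subunit genes (18 below 0). In wt liver it was -0.06 for each subunit, with 31 of 34 and 18 of 22 genes below 0. In Dll1 spleen the medians were 0.12 (27 of 34 above 0) and 0.15 (18 of 22 above), and in wt spleen 0.08 (28 of 34) and 0.10 (17 of 22). Taken per mouse, the large-subunit median minus the small-subunit median averaged -0.008 ± 0.052 in Dll1 liver, -0.025 ± 0.018 in wt liver, -0.040 ± 0.050 in Dll1 spleen and -0.016 ± 0.022 in wt spleen (SD, n = 4 mice each). In Dll1 liver, Dll1 spleen and wt spleen the mean was smaller than the SD between mice, and none of the 4 differences was tested. The small difference in wt liver turned to 0.076 with the Cy3 arrays turned, and all 4 differences were above 0 on that reading. In each group the large-subunit median then lay above the small-subunit median in 4 of 4 mice.

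The 6 paralogs and partner genes were less even. Their medians were -0.03 in Dll1 liver, -0.02 in wt liver, 0.10 in Dll1 spleen (6 of 6 above 0) and -0.04 in wt spleen (3 of 6 above). Rps27l, a p53 target related to Rps27, had -0.15, -0.47, -0.27 and -0.26 in the spleens of wt clones (-0.29 ± 0.13, SD, n = 4), all below 0, against -0.02, 0.004, 0.21 and 0.004 in those of Dll1 clones. Rps27 itself lay on the other side in the same wt spleens, at 0.36, 0.23, 0.42 and 0.40. Rpl39l, a paralog known for its expression in testis, ranged from -0.28 to 1.47 in Dll1 spleens, and Rpl7l1 from -0.34 to 2.12. Rpl36al, a paralog of Rpl36a, followed the standard genes in Dll1 clones, with -0.04, -0.04, -0.13 and -0.05 in liver against 0.17, 0.01, 0.16 and 0.23 in spleen, all 4 livers below 0 and all 4 spleens above it. Of these 6 genes, those above 0 in Dll1 liver were the partner gene Rps19bp1 at 0.12 ± 0.20 and the paralog Rpl39l at 0.03 ± 0.15 (SD, n = 4 each). Neither stood apart from 0 by limma (adjusted p = 0.627 and 0.869).

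**Figure D3:**
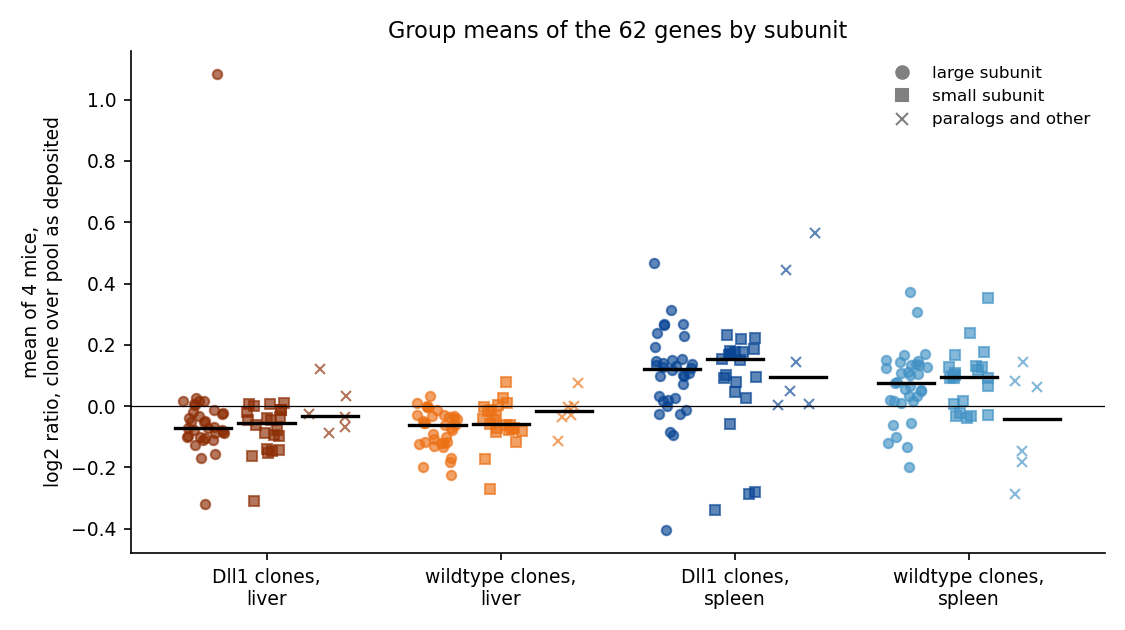
Mean log2 ratio of 4 mice (vertical axis, clone over pool as deposited) for each of the 62 genes, by group and subunit, with black bars at the median. The large- and small-subunit medians lie at -0.07 to -0.05 in liver and at 0.08 to 0.15 in spleen. The paralogs have medians of -0.03, -0.02, 0.10 and -0.04, and Rpl19 stands alone at 1.08 in Dll1 liver.

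Rpl32, a large-subunit protein whose mRNA often serves as a loading standard, had the smallest p of the 62 genes in Dll1 spleen. Between the organs it had the smallest p in Dll1 clones and in the mean of the genotypes, but not in wt clones. In livers of Dll1 clones its values were -0.01, -0.05, -0.18 and -0.04 in mice 1 to 4, against 0.54, 0.52, 0.51 and 0.31 in the spleens of the same mice. In wt clones they were -0.05, -0.08, -0.16 and 0.01 in liver, against 0.05, 0.08, 0.26 and 0.02 in spleen. The 4 Dll1 spleens lay above all other samples, and the lowest of them, mouse 4 at 0.31, was above the highest wt spleen. The Dll1 spleen mean was 0.47 ± 0.11 (SD, n = 4; limma, adjusted p = 0.417), and the Dll1 minus wt difference in spleen was 0.36 ± 0.16 (SE; limma, adjusted p = 0.883). The liver minus spleen difference was -0.54 ± 0.10 in Dll1 clones (SE; limma, adjusted p = 0.104) and -0.36 ± 0.07 in the mean of the genotypes (SE; limma, adjusted p = 0.0606). The mean difference had adjusted p = 0.0387 with values of any size kept and 0.0443 where both arrays of a mouse were required. Without mouse 4 the Dll1 difference had adjusted p = 0.044. On the turned reading the mean difference shrank to -0.02 and the Dll1 spleen mean to 0.16, so that the gene's lead rests on the reading as deposited. Both Rpl32 probes gave like values in Dll1 spleen, 0.52 and 0.41.

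Rpl23, a large-subunit protein, was the lowest gene in Dll1 liver. Its values were -0.51, -0.10, -0.41 and -0.26 in Dll1 livers against 0.15, 0.12, -0.01 and 0.28 in Dll1 spleens. They were 0.01, -0.17, -0.42 and -0.20 in wt livers against 0.18, -0.03, 0.21 and 0.23 in wt spleens. The livers of Dll1 clones lay below all 4 of their spleens, and the wt organs overlapped only through liver mouse 1 and spleen mouse 2. Its liver mean over both genotypes, -0.26 ± 0.05 (SE; limma, adjusted p = 0.156), had the smallest p of the members in liver. Between organs the mean difference was -0.40 ± 0.09 (SE; limma, adjusted p = 0.0877) as deposited and -0.17 with the Cy3 arrays turned.

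Rpl39, one of the shortest ribosomal proteins, lies in the wall of the exit tunnel and was the gene with the smallest p in wt liver. Wt livers had -0.24, -0.26, -0.35 and -0.04, against 0.18, 0.10, 0.18 and 0.13 in wt spleens. Dll1 livers had -0.25, -0.02, -0.07 and -0.10, against 0.09, 0.07, -0.09 and 0.45 in Dll1 spleens. All 4 wt livers lay below 0 and all 4 wt spleens above it, and the Dll1 organs overlapped through spleen mouse 3. The wt liver mean was -0.23 ± 0.13 (SD, n = 4; limma, adjusted p = 0.357), and the wt liver minus spleen difference was -0.37 ± 0.12 (SE; limma, adjusted p = 0.641). When the Cy3 arrays were turned it was among the genes that passed, at -0.34 in wt liver (adjusted p = 0.00131) and -0.62 between wt organs (adjusted p = 0.00186, limma).

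**Figure D4:**
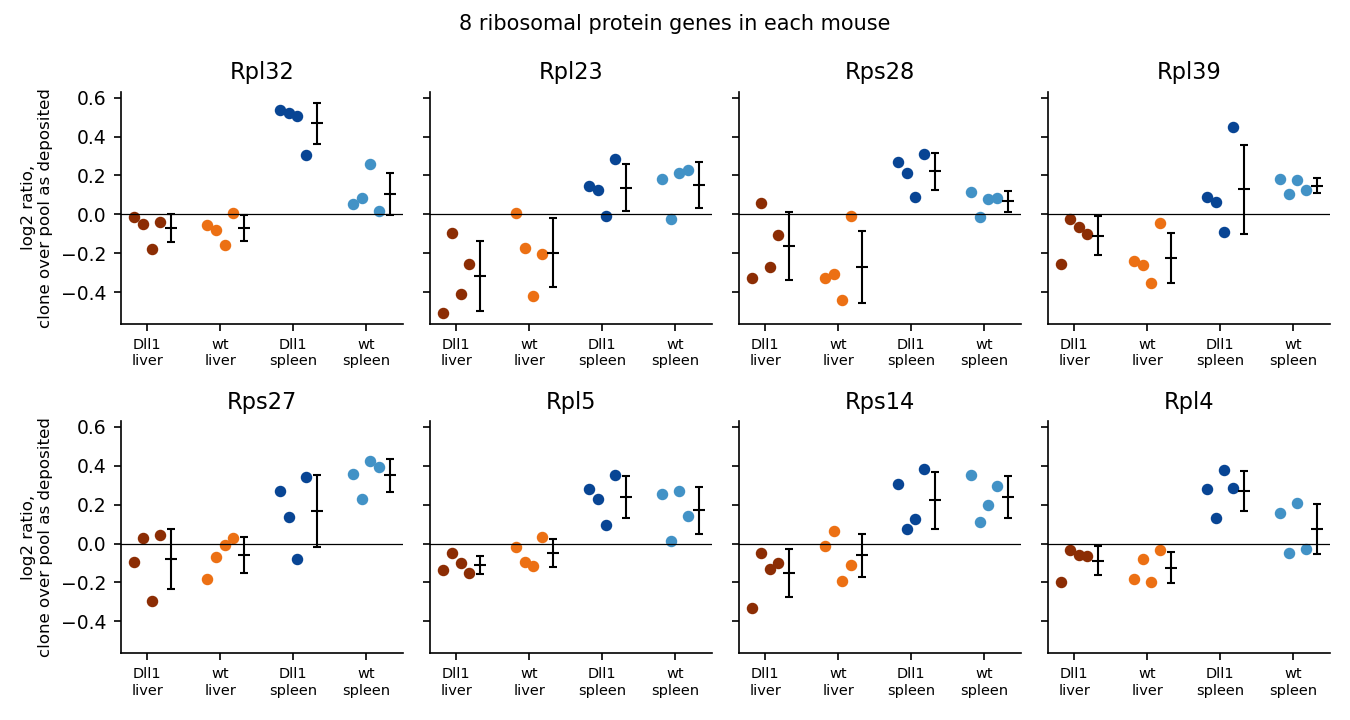
Log2 ratio (vertical axis, clone over pool as deposited) of 8 ribosomal protein genes in each mouse, with livers left of spleens and Dll1 clones left of wt clones. Points are mice, and bars are the mean and SD of 4 mice. The 4 Dll1 spleens of Rpl32 lie at 0.31 to 0.54, above its other samples, while Rpl23, Rps28 and Rpl39 have their lowest values in liver, at -0.51, -0.44 and -0.35.

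The large-subunit proteins Rpl4, which reaches into the exit tunnel, and Rpl14 were below 0 in all 8 livers. Rpl4 had -0.20, -0.04, -0.06 and -0.06 in Dll1 livers against 0.28, 0.13, 0.38 and 0.29 in Dll1 spleens, and -0.18, -0.08, -0.20 and -0.04 in wt livers against 0.16, -0.05, 0.21 and -0.03 in wt spleens. Its 3 probes gave 0.10, 0.36 and 0.35 in Dll1 spleen. Rpl14 had -0.12, -0.04, -0.22 and -0.02 in Dll1 livers against 0.16, 0.13, 0.26 and 0.52 in Dll1 spleens, and -0.10, -0.15, -0.16 and -0.13 in wt livers against 0.04, 0.09, 0.45 and -0.04 in wt spleens. The Dll1 organs of both genes did not overlap, with liver minus spleen differences of -0.36 ± 0.10 for Rpl4 and -0.37 ± 0.12 for Rpl14 (SE; limma, adjusted p = 0.2 and 0.246). On the turned reading both liver means changed sign, to 0.05 and 0.02 in Dll1 clones for Rpl4 and Rpl14, and to 0.25 in wt clones for Rpl14. Rpl28 had -0.21, -0.05, -0.24 and -0.12 in Dll1 livers (limma, adjusted p = 0.484), against -0.03, -0.01, -0.07 and 0.14 in wt livers. The Dll1 minus wt difference of Rpl28 in liver was -0.16 ± 0.07 (SE; limma, adjusted p = 0.935).

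Rpl5 and Rpl11 form, with the 5S ribosomal RNA, the particle that also binds Mdm2 when ribosome assembly is disturbed. Rpl5 had -0.14, -0.05, -0.10 and -0.15 in Dll1 livers against 0.28, 0.23, 0.09 and 0.35 in Dll1 spleens, and -0.02, -0.10, -0.12 and 0.04 in wt livers against 0.26, 0.01, 0.27 and 0.14 in wt spleens. All 4 Dll1 livers lay below 0 and all 4 Dll1 spleens above it, with a difference of -0.35 ± 0.10 (SE; limma, adjusted p = 0.197). Rpl11 went the other way in Dll1 clones, with -0.25, -0.09, 0.01 and 0.02 in liver against -0.89, -0.51, -0.04 and -0.18 in spleen, and -0.18, -0.08, -0.12 and -0.09 in wt livers against -0.07, -0.29, 0.02 and -0.06 in wt spleens. The Dll1 spleen mean of Rpl11, -0.41 ± 0.38 (SD, n = 4), was the lowest of the 62 genes (limma, adjusted p = 0.479). Its 2 probes disagreed there, at 0.10 and -0.91. The probe at 0.10 resembled the other ribosomal protein probes more (r = 0.68 against -0.50 over 16 organ samples). Those samples include the Dll1 spleens, so this likeness cannot decide which probe is right.

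The stalk of the large subunit, which brings elongation factors to the ribosome, consists of Rplp0 with pairs of Rplp1 and Rplp2. Rplp0 had -0.11, -0.16, -0.18 and 0.05 in Dll1 livers against 0.11, 0.02, 0.18 and 0.31 in Dll1 spleens, and 0.03, -0.04, -0.04 and -0.06 in wt livers against -0.001, -0.21, 0.06 and -0.10 in wt spleens. Rplp1 averaged -0.07 ± 0.06, -0.003 ± 0.07, -0.03 ± 0.21 and 0.02 ± 0.07 in Dll1 liver, wt liver, Dll1 spleen and wt spleen (SD, n = 4 each). Rplp2 averaged -0.09 ± 0.07, -0.13 ± 0.10, 0 ± 0.16 and 0.03 ± 0.06 in the same order. All 3 stalk genes thus had liver means below 0, Rplp1 barely so in wt liver, and in spleen no mean but that of Rplp0 in Dll1 clones exceeded 0.05. The turned wt liver means were 0.22, 0.29 and 0.35 for Rplp0, Rplp1 and Rplp2.

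Rpl19, which bridges the subunits, stood apart from the other members in liver. Dll1 livers had 0.47, 0.68, 1.23 and 1.96 against 0.45, 0.30, 0.21 and 0.11 in Dll1 spleens. Wt livers had 1.98, -0.24, -1.67 and -0.81 against 0.05, -0.07, 0.45 and 0.15 in wt spleens. Its liver values spanned -1.67 to 1.98, while those of other members stayed within -0.62 and 0.41. The Dll1 liver mean of 1.08 ± 0.67 (SD, n = 4) had adjusted p = 0.545 by limma, and with the Cy3 arrays turned it was -0.56. Rpl7a was the 1 gene below 0 in all 8 organs of wt clones, with -0.04, -0.14, -0.10 and -0.11 in liver against -0.13, -0.16, -0.12 and -0.12 in spleen.

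Among small-subunit genes, Rps28, which sits near the messenger exit, was lowest in wt liver. Wt livers had -0.33, -0.31, -0.44 and -0.01 against 0.12, -0.02, 0.08 and 0.08 in wt spleens, and Dll1 livers -0.33, 0.06, -0.27 and -0.10 against 0.27, 0.21, 0.09 and 0.31 in Dll1 spleens. The Dll1 organs did not overlap, and the wt organs met only at liver mouse 4 and spleen mouse 2. The wt liver mean was -0.27 ± 0.18 (SD, n = 4; limma, adjusted p = 0.403) and the mean liver minus spleen difference was -0.36 ± 0.08 (SE; limma, adjusted p = 0.104). On the turned reading that difference was -0.23 and passed (adjusted p = 0.0293).

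Rps27, a zinc-finger protein of the small subunit, was the gene with the smallest p in wt spleen. Its values were -0.18, -0.07, -0.01 and 0.03 in wt livers against 0.36, 0.23, 0.42 and 0.40 in wt spleens, and -0.10, 0.03, -0.29 and 0.04 in Dll1 livers against 0.27, 0.14, -0.08 and 0.34 in Dll1 spleens. All 4 wt spleens lay above all 4 wt livers, and the Dll1 organs overlapped. The wt spleen mean was 0.35 ± 0.09 (SD, n = 4; limma, adjusted p = 0.9999) and the wt liver minus spleen difference -0.41 ± 0.12 (SE; limma, adjusted p = 0.517). Rps14, the gene whose loss marks the 5q- syndrome in human, had -0.33, -0.05, -0.13 and -0.10 in Dll1 livers against 0.31, 0.07, 0.12 and 0.39 in Dll1 spleens, and -0.01, 0.07, -0.19 and -0.11 in wt livers against 0.35, 0.11, 0.20 and 0.29 in wt spleens. Its organs did not overlap in either genotype.

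Rps6, the target of the S6 kinases, had -0.01, 0.01, 0.01 and -0.005 in Dll1 livers against -0.49, 0.002, -0.68 and -0.17 in Dll1 spleens, and -0.13, -0.08, -0.10 and 0.01 in wt livers against 0.26, 0.01, 0.30 and -0.20 in wt spleens. Its Dll1 spleen mean of -0.34 ± 0.31 (SD, n = 4; limma, adjusted p = 0.502) came from 1 of its 2 probes, which gave -0.82 while the other gave 0.14. The probe at 0.14 resembled the remaining ribosomal protein probes (r = 0.74), and the probe at -0.82 did not (r = -0.51). These r values come from the same samples and cannot decide between the 2 probes. Rps19, whose loss in human causes Diamond-Blackfan anaemia, averaged 0.01 ± 0.05, -0.07 ± 0.07, 0.17 ± 0.09 and 0.09 ± 0.17 in Dll1 liver, wt liver, Dll1 spleen and wt spleen (SD, n = 4 each). Rpsa, which is also known as a laminin receptor, averaged 0.01 ± 0.12, -0.07 ± 0.05, 0.10 ± 0.10 and 0.02 ± 0.10. Both were above 0 in all or 3 of 4 Dll1 spleens and near 0 in Dll1 liver. Rps9 had -0.23, -0.20, -0.62 and -0.19 in Dll1 livers against -1.05, -0.28, -0.04 and 0.25 in Dll1 spleens, with a liver mean of -0.31 ± 0.20 (SD, n = 4; limma, adjusted p = 0.477), and mouse 3 set the low end in liver. Rps12 was the gene with the smallest p on the high side in wt liver, at 0.08 ± 0.07 (SD, n = 4), followed by Rpl7l1 at 0.07 ± 0.07 and Rps21 at 0.03 ± 0.04 (SE).

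Strict one-sidedness was rare. All 4 livers below 0 together with all 4 spleens above 0 was found for 8 of 62 genes in Dll1 clones (Rpl14, Rpl32, Rpl36al, Rpl4, Rpl5, Rps14, Rps15 and Rps3a1), against 1.13% of all features. In wt clones it was found for 3 of 62 (Rpl13a, Rpl39 and Rpl9), against 1.15%. No gene was in both lists, and with lists of 8 and 3 genes this does not show a difference between the genotypes. Rpl19 was above 0 in all 8 organs of Dll1 clones.

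As deposited, no member differed between genotypes past the threshold. On the turned reading members passed in liver at a share near that of all features. The Dll1 minus wt difference had a median of -0.003 over the 62 genes in liver (32 below 0, 30 above) and 0.04 in spleen (22 below, 40 above). None of the members and 0% of all features passed in either organ, and the lowest adjusted p of a member was 0.935 in liver and 0.883 in spleen by limma. At an unadjusted p under 0.05, Rps9 and Rpl28 were lower in Dll1 than in wt liver and Rpl32 higher in Dll1 than in wt spleen. With the Cy3 arrays turned, 6 of 62 members passed on the higher side and 20 on the lower side in liver. Of all features 40.3% passed there, 20.2% on the higher side. None did in spleen (0% of all features). Among the genes lower in Dll1 than in wt liver on that reading were Rplp1 (-0.29 ± 0.06), Rplp2 (-0.30 ± 0.06) and Rpl5 (-0.28 ± 0.06), while Rpl39 was higher (0.40 ± 0.08; SE, limma, adjusted p = 0.00654, 0.00409, 0.00682 and 0.00626). Clones of each genotype were set against a pool of their own, so these differences also hold any difference between the pools.

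The probes of these genes resembled each other over the mice. Each of the 93 probes was correlated with the median of the other member probes over the 16 organ samples, which share arrays, pools and the split between organs. The median r was 0.63, 79 of 93 probes were above 0, 56 above 0.5, and the range was -0.51 to 0.95. It was 0.64 for the 87 probes of standard subunit genes and 0.03 for the 6 probes of the paralogs and the partner gene. The mean r of all pairs was 0.30 among 50 large-subunit probes, 0.25 among 36 small-subunit probes and -0.03 among the 6 paralogs. It was -0.005 among 72 probes of mitochondrial ribosomal proteins, which form a separate ribosome. With the mean of each group taken out, the pairs still had a mean r of 0.17 over 92 ribosomal protein probes. Looked up by row number as given, without the shift of 11 rows, member probes had a mean pair r of 0.004.

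**Figure D5:**
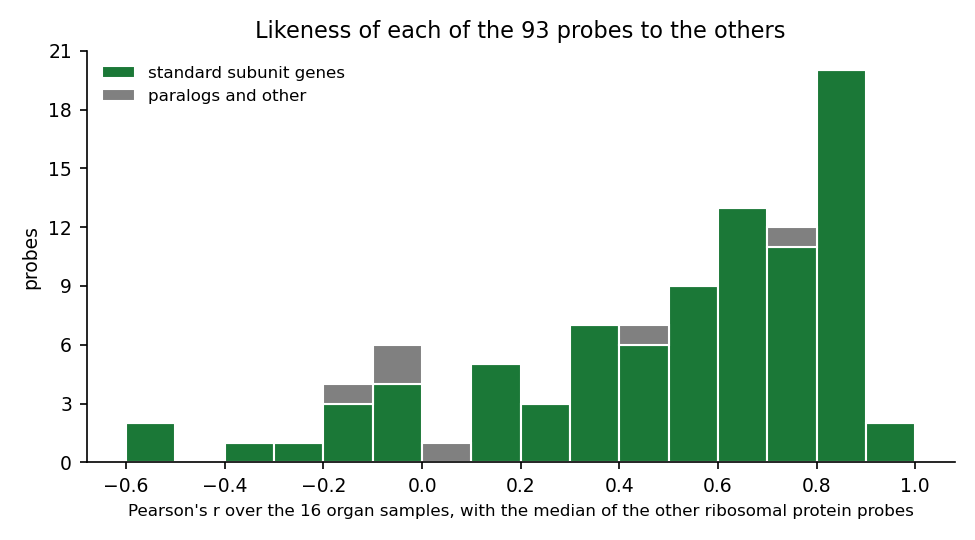
Number of probes (vertical axis) by Pearson's r with the median of the other ribosomal protein probes over 16 organ samples (horizontal axis), with the 6 probes of paralogs and the partner gene in grey. Most of the 93 probes lie above 0.5 (56 probes), and 14 lie below 0.

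Probes of the same gene did not always agree. Of 23 genes with several probes, all had the same sign in 14 genes in Dll1 liver, 13 in wt liver, 15 in Dll1 spleen and 15 in wt spleen. Besides Rpl11 and Rps6, the probes of Rps9 (0.09 and -0.65 in Dll1 spleen), Rpl30 (0.20 and -0.26 there, 0.19 and -0.59 in wt spleen) and Rps12 (-0.54 and -0.03) were apart. Rpl35, at 0.37 ± 0.49 in wt spleen (SD, n = 4), rested on 1 of 3 probes, with values of 1.08, 0.01 and 0.02. Rpl30 and Rpl7a, the other low genes of wt spleen, had -0.20 ± 0.31 and -0.13 ± 0.02 (SD, n = 4 each).

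Other genes of translation were described by lists. The 12 elongation factors on the array had medians of -0.06 in Dll1 liver and -0.07 in wt liver (10 of 12 below 0 in each), against 0.02 in Dll1 spleen and -0.02 in wt spleen (6 of 12 below 0 in each). Eef1a1, which brings aminoacyl-tRNA to the ribosome, had a liver mean over genotypes of -0.18 ± 0.04 and a spleen mean of 0.18 ± 0.12 (SE; limma, adjusted p = 0.166 and 0.732). With the Cy3 arrays turned its liver mean was -0.12 and passed (limma, adjusted p = 0.0407), where 41.6% of all features passed. Its spleen mean was then 0.11 and did not pass. Eef1b2, its exchange factor, lay at -0.13 and Eef2, the translocase, at -0.10 in liver, and in spleen Eef2 lay at 0.12 and Btf3 at 0.11. The 18 other mRNAs known to carry a TOP motif, which include these elongation factors, had medians of -0.04 and -0.03 in Dll1 and wt liver (12 of 18 below 0 in each), against 0.10 and 0.12 in Dll1 and wt spleen (13 and 14 of 18 above 0). Their mean liver minus spleen difference had a median of -0.20, with 15 of 18 below 0. With the Cy3 arrays turned, their medians were -0.01 in Dll1 liver and -0.001 in wt liver, against 0.05 and 0.11 in Dll1 and wt spleen. The mean organ difference then had a median of -0.09, with 14 of 18 below 0. In spleen Eif3h, a subunit of an initiation factor, lay at 0.35, Hnrnpa1 at 0.25 and Vim at 0.14. Fau, which encodes a small-subunit protein fused to a ubiquitin-like part, was the 1 fused gene on the array, at -0.09 in Dll1 liver and -0.04 in wt liver, against 0.09 in Dll1 spleen and 0.22 in wt spleen. With the Cy3 arrays turned it lay at 0.09, 0.01, 0.42 and 0.33 in the same order. It then passed in the spleen mean (0.38) and the mean organ difference (-0.33), where 11.7% and 12.4% of all features passed.

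The remaining lists of translation genes had medians within 0.02 of 0 in liver and between -0.07 and 0.05 in spleen. The 61 mitochondrial ribosomal protein genes had medians of 0.01 in Dll1 liver and 0.009 in wt liver (28 of 61 below 0 in each), against -0.07 and -0.04 in Dll1 and wt spleen. The 32 initiation factors had 0.008, -0.02, -0.002 and -0.05 in Dll1 liver, wt liver, Dll1 spleen and wt spleen. Ribosome biogenesis genes, 42 in liver and 40 in spleen, had -0.009, -0.005, 0.05 and -0.04 in the same order. No gene of these lists passed in any comparison as deposited. On the turned reading the medians in the same order were 0.003, 0.05, -0.07 and -0.08 for mitochondrial ribosomal proteins, 0.02, 0.05, 0.12 and 0.02 for initiation factors, and 0.03, 0.11, -0.005 and 0.004 for ribosome biogenesis genes. In wt liver 17 mitochondrial ribosomal protein genes then passed higher and 8 lower, and elongation factors had a median of 0.002 there.

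Markers of cell types also lay away from 0 in the same organs. In liver the 12 hepatocyte markers had medians of -0.08 in Dll1 clones (11 of 12 below 0) and -0.21 in wt clones (12 of 12), and Fga and Fgb, which encode fibrinogen chains, fell in the mean of both genotypes by 0.37 and 0.31 on the log2 scale (limma, adjusted p = 0.0189 and 0.0275). In spleen the 7 erythroid markers had medians of -0.71 in Dll1 clones (7 of 7 below 0) and -0.75 in wt clones (6 of 7). The 18 cell cycle genes had -0.23 and -0.39 (15 of 18 below 0 in each), and the 9 neutrophil markers -0.54 and 0.04. B cell markers (5 genes) had 0.06 and 0.18, T cell markers (9 genes) 0.26 and 0.09, and macrophage markers (6 genes) 0.10 and 0.07 in Dll1 and wt spleen. In the mean of the livers the 7 erythroid markers had a median of 0.003, with 3 below 0 and 4 above. Hba-a1 alone among them passed there, lower by 0.44 on the log2 scale (limma, adjusted p = 0.0146). These liver calls were lost with arrays centred and scaled and in 1 fit over all 4 groups, where no feature passed in the liver mean. With the Cy3 arrays turned Fga passed on the other side (0.16, adjusted p = 0.00733, limma), and Fgb (-0.007) and Hba-a1 (-0.08) did not pass (adjusted p = 0.890 and 0.216, limma). On that reading the hepatocyte medians were 0.0009 in Dll1 liver and 0.13 in wt liver, and the erythroid medians 0.09 in Dll1 spleen and 0.24 in wt spleen, so that the erythroid sign also turned. The cell cycle medians were then -0.02 and 0.04 in Dll1 and wt spleen. The part of these cell types in the ribosomal protein values was not tested.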

How the data were processed

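Gene expression was measured on 32 arrays with 2 colours, 4 groups of 4 mice with 2 dye-swapped arrays per mouse. Total RNA came from RNeasy kits and was reverse transcribed and labelled with both dyes in turn, per the labels' protocols. The deposited values are log2 ratios, 1 per probe and array, a unit and base read from the values. The sources used here do not give their normalization, background correction or scanner. Values over 9 in size (1183 in all, 1 of them on a member probe) were treated as missing, and 0 columns went unused.

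A row's name was read from the platform annotation 11 rows earlier. This shift comes from the rule that defines the members, and the labels do not state it. The 12771 probes with 1 symbol were matched to current RefSeq symbols, which named 12760 of 20794 rows. The 2 arrays of a mouse were averaged, then the probes of a gene. limma 3.58.1 in R 4.3.3 was fitted for each organ over both genotypes, on features with 3 or more mice per genotype, and over all 16 organ samples for liver minus spleen. Benjamini-Hochberg adjustment ran over all features. Other steps used Python 3.11.15, pandas 2.3.3, numpy 2.4.6 and matplotlib 3.10.9. The fits were checked on simulated data. The p-values rest on the spread between clones within a group, pooled over both genotypes in an organ fit and over all 4 groups for liver minus spleen. The main liver minus spleen fit does not pair the organs of a mouse. The sources do not say whether the clones came from separate donor cells.

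Members, lists and tests were chosen with earlier results of these data known. Named genes are members that passed in any comparison, the 3 with the smallest p on each side in each group and organ difference, members with all 4 mice on 1 side of 0 in both organs of a genotype, and members of set roles. Of other lists the 3 with the smallest p per organ were named. The same animals gave both organs, by the identifiers in the labels, and a fit with the mouse as a block was an alternative. Other alternatives were the turned sign of the Cy3 arrays, filters on values and mice, centring, scaling, 1 probe per gene, other fits, names without the shift, and leaving out each mouse.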

Additional observations from a re-analysis of the deposited data

Results flagged for a closer look

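In 8 of 148 sets of 4 mice tested, 1 mouse lay far from the other 3, and chance gives about 1 in 20 sets. In spleens of Dll1 clones these were Rpl32 in mouse 4 at 0.31, below the others, Rps15 in mouse 1 at 0.28, Rps27l in mouse 3 at 0.21 and Rps3a1 in mouse 4 at 0.35, each above the others. In livers of Dll1 clones they were Rpl36al in mouse 3 at -0.13 and Rps9 in mouse 3 at -0.62, each below the others. In wt clones they were Rps15 at -0.084 in the liver of mouse 3, below the others, and Rps19 at 0.35 in the spleen of mouse 1, above them.

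In Dll1 clones all 4 livers and all 4 spleens lay on opposite sides of 0 in the median of the 62 genes (liver minus spleen -0.19), of the large-subunit genes (-0.18) and of the small-subunit genes (-0.21). These differences of medians were not tested. The same held for single genes in Dll1 clones, with liver minus spleen differences of -0.37 for Rpl14, -0.54 for Rpl32, -0.21 for Rpl36al, -0.36 for Rpl4, -0.35 for Rpl5, -0.38 for Rps14, -0.24 for Rps15 and -0.27 for Rps3a1. In wt clones it held for Rpl13a at -0.25, Rpl39 at -0.37 and Rpl9 at -0.22. By limma none of these single-gene differences passed, with adjusted p between 0.104 and 0.372 in Dll1 clones and between 0.641 and 0.992 in wt clones.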

How the results depend on the processing

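Features that passed were recounted wherever an alternative was fitted. Passing members were counted over the whole list only with all Cy3 arrays turned, with those of wt liver alone turned, and in the fit over all 4 groups. Under the other settings new calls among members not followed singly were not counted. No call of a member existed to be lost, since none passed as reported. Single genes were followed only in comparisons where they were named or had a set role. The sign changes listed below cover those genes alone. Medians of the 62 genes were recomputed under the alternatives that change values, names, genes or mice. They kept their sign in spleen and between organs wherever the row shift was kept. They kept it in Dll1 liver too, and in wt liver except where its Cy3 arrays were turned. Requiring all 4 mice, fitting each group alone and keeping the standard subunit genes alone changed no direction of these medians.

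The replicate block was run with the mouse as a block in the liver minus spleen fits, since identifiers pair the organs of 4 mice per genotype. With it 0 features passed in Dll1 clones (in place of 7) and 0 in the mean (in place of 37), and members stayed at 0 calls. The differences themselves do not move with a block. In each organ fit the 2 arrays of a mouse correlated at -0.32 in liver and -0.0012 in spleen after the group means, by limma's consensus correlation.

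When all Cy3 arrays were turned, the number of features that passed was 772 in Dll1 liver (in place of 0), 9167 in wt liver (in place of 12), 7079 in the liver mean (in place of 19), 6855 in Dll1 minus wt in liver (in place of 0), 740 in Dll1 spleen (in place of 0), 161 in wt spleen (in place of 0), 1984 in the spleen mean (in place of 0), 586 in the organ difference of Dll1 clones (in place of 7), 2069 in the organ difference of wt clones (in place of 0) and 2096 in the organ difference in the mean (in place of 37). Values became -0.0085 for the median in Dll1 liver, 0.050 for the large minus small subunit difference in Dll1 liver, 0.031 for the median in wt liver, 0.076 for the large minus small subunit difference in wt liver, 0.050 for the large minus small subunit difference in Dll1 spleen, 0.18 for the median in wt spleen, 0.028 for the large minus small subunit difference in wt spleen and -0.083 for the median in the organ difference of Dll1 clones. Genes that changed sign were, in Dll1 liver, Rpl19 (-0.56), Rps19bp1 (-0.16), Rpl28 (0.049), Rplp0 (0.029), Rplp2 (0.045), Rps6 (-0.20), Rps19 (-0.20), Rpl14 (0.016), Rpl32 (0.017), Rpl36al (0.054), Rpl4 (0.053) and Rps3a1 (0.041) and, in wt liver, Rps12 (-0.091), Rps21 (-0.0069), Rpl14 (0.25), Rplp0 (0.22), Rplp1 (0.29), Rplp2 (0.35), Rpsa (0.12), Rpl5 (0.27), Rps19 (0.19), Rpl13a (0.12) and Rpl7a (0.070). Others were, in Dll1 spleen, Rpl11 (0.056), Rplp1 (0.011) and Rps19 (-0.029) and, in wt spleen, Rps27l (0.060), Rpl7a (0.12), Rplp0 (0.29), Rps6 (-0.34), Rpl11 (0.19) and Rps19 (-0.031). Others were, in the organ difference of Dll1 clones, Rpl11 (-0.059) and Rpl19 (-0.77) and, in the organ difference of wt clones, Rps27l (-0.25), Rpl39l (-0.39) and Rpl7a (-0.051). Others were, in the organ difference in the mean, Rpl11 (-0.19). Members not followed in wt liver changed sign too, among them Rpl36al (-0.036 to 0.48), Rps18 (-0.060 to 0.43) and Rps16 (-0.12 to 0.30).

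With values of any size kept, the number of features that passed was 0 in wt liver (in place of 12) and 3 in the organ difference of wt clones (in place of 0).

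Where both arrays of a mouse were required, the number of features that passed was 29 in the liver mean (in place of 19), 13 in the organ difference of Dll1 clones (in place of 7) and 3 in the organ difference of wt clones (in place of 0).

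With each array centred on its median, the number of features that passed was 3 in the organ difference of Dll1 clones (in place of 7).

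With arrays centred and scaled, the number of features that passed was 0 in wt liver (in place of 12), 0 in the liver mean (in place of 19), 1 in the organ difference of Dll1 clones (in place of 7) and 1 in the organ difference in the mean (in place of 37). Values became -0.097 for the median in Dll1 liver. Genes that changed sign were, in wt liver, Rplp1 (0.023) and, in wt spleen, Rplp1 (-0.0032) and Rpsa (-0.012). Others were, in the organ difference of wt clones, Rpl7a (-0.011) and, in the organ difference in the mean, Rps6 (-0.0035).

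With 1 probe per gene, the number of features that passed was 3 in the organ difference of Dll1 clones (in place of 7). Values became 0.0049 for the large minus small subunit difference in Dll1 liver and 0.00019 for the large minus small subunit difference in wt liver. Genes that changed sign were, in Dll1 liver, Rps6 (-0.13) and, in wt liver, Rplp0 (0.030). Others were, in Dll1 spleen, Rpl11 (0.10) and Rps6 (0.14) and, in wt spleen, Rpl11 (0.13). Others were, in the organ difference of Dll1 clones, Rps6 (-0.28) and Rpl11 (-0.17) and, in the organ difference in the mean, Rpl11 (-0.19) and Rps6 (-0.26).

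In 1 fit over all 4 groups, the number of features that passed was 0 in wt liver (in place of 12), 952 in Dll1 spleen (in place of 0), 62 in wt spleen (in place of 0), 0 in the liver mean (in place of 19), 597 in the spleen mean (in place of 0) and 56 in Dll1 minus wt in spleen (in place of 0).

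With single arrays, a dye term and a random mouse block, the number of features that passed was 12 in Dll1 liver (in place of 0), 53 in wt liver (in place of 12), 213 in the liver mean (in place of 19), 1 in Dll1 spleen (in place of 0), 8 in wt spleen (in place of 0) and 62 in the spleen mean (in place of 0).

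With names as given by row number, values were 0.0044 for the median in Dll1 liver, -0.0054 for the median in wt liver, 0.036 for the median in Dll1 spleen, 0.010 for the median in wt spleen, -0.044 for the median in the organ difference of Dll1 clones and -0.028 for the median in the organ difference of wt clones.

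With the Cy3 arrays of wt liver alone turned, chosen after seeing the data, the number of features that passed was 1 in Dll1 liver (in place of 0), 8683 in wt liver (in place of 12), 5187 in the liver mean (in place of 19), 5929 in Dll1 minus wt in liver (in place of 0), 273 in the organ difference of wt clones (in place of 0) and 80 in the organ difference in the mean (in place of 37). Values became 0.031 for the median in wt liver, 0.076 for the large minus small subunit difference in wt liver and -0.015 for the median in the organ difference of wt clones. The same wt liver genes changed sign as with all Cy3 arrays turned, with the same values. On this reading members that passed were 17 higher and 9 lower in wt liver, 7 higher and 13 lower in the liver mean, 6 higher and 19 lower in Dll1 minus wt in liver, 1 higher and 1 lower in the organ difference of wt clones, and 1 lower in that of the mean.

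Without the 4 arrays with over 1000 missing values, chosen after seeing the data, the number of features that passed was 0 in the organ difference of Dll1 clones (in place of 7) and 13 in the organ difference in the mean (in place of 37). Genes that changed sign were, in wt spleen, Rpl30 (0.028) and Rpsa (-0.0092) and, in the organ difference of wt clones, Rpl30 (-0.091). Others were, in the organ difference in the mean, Rps6 (-0.031).

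Leaving out 1 mouse at a time gave ranges, in which the number of features that passed was 10 to 35 in the liver mean, 1 to 68 in the organ difference of Dll1 clones, 0 to 73 in the organ difference in the mean, 0 to 1 in Dll1 liver and 0 to 2 in wt liver. Values that crossed 0 ranged over -0.025 to 0.056 for Rpsa in Dll1 liver, -0.0012 to 0.0051 for Rps6 in Dll1 liver, -0.013 to 0.022 for Rps19 in Dll1 liver and -0.45 to 0.040 for Rps12 in Dll1 spleen. Others ranged over -0.090 to 0.053 for Rplp1 in Dll1 spleen, -0.023 to 0.077 for Rpl39l in Dll1 liver, -0.026 to 0.030 for Rplp1 in wt liver and -0.0080 to 0.047 for Rplp1 in wt spleen. Others ranged over -0.021 to 0.062 for Rpsa in wt spleen. The median of the 62 genes in wt spleen ranged over 0.044 to 0.11. The range was -0.031 to 0.0097 for the large minus small subunit difference in Dll1 liver.

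The sources used here do not give the submitters' normalization or background correction, so their effect was not varied. The number of arrays, 2 per mouse and organ, limits the precision, and signal over background was not analysed here. Reasons for the changes above were not tested, apart from the turned sign, the dropped probes and the dropped arrays themselves.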
